A study of Sus scrofa with 6 samples.

Results

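The miRNAs described here are porcine miR-103, miR-107 and miR-378, all arms, in fetal longissimus dorsi muscle of an obese and a lean pig breed. They were taken by name, as every line of the miRNA table whose first name starts with ssc-miR-103, ssc-miR-107, ssc-miR-33a, ssc-miR-33b or ssc-miR-378. Of 1143 lines, 7 had such a name, 3 of miR-103, 2 of miR-107 and 2 of miR-378, and 0 were named miR-33a or miR-33b. The conserved PN-6-5p, which the table of hairpins matches to canine mir-33a, carries the miR-33 seed and is therefore given beside the 7. Small RNA was sequenced from 3 Meishan (MS, obese) and 3 Large White (LW, lean) female fetuses. The sows differed, each library was 1 animal, and p-values measure the spread between animals. The age used here is 35 dpc (days post-conception), as in the methods, although the labels read 2 years. Breed was the only difference set by the design, and the samples were whole muscle tissue, in which fewer cells of a type and less RNA per cell cannot be told apart.

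The miR-103 and miR-107 hairpins lie in introns of pantothenate kinase genes, whose enzymes start the synthesis of coenzyme A, the carrier of fatty acyl groups. Both miRNAs share the seed, the bases 2 to 8 that pair with targets, and in mice they are known to lower insulin sensitivity in liver and fat. In mice and humans miR-33a is known for repressing the cholesterol exporter ABCA1. MiR-378 is made from an intron of PPARGC1B, a coactivator of genes of mitochondrial metabolism, and in mice it takes part in myoblast differentiation and in the use of fatty acids. In the RefSeq annotation of Sscrofa11.1 the overlapping protein-coding genes were PANK3 for MIR103-1, PANK2 for MIR103-2, PANK1 for MIR107, PPARGC1B for MIR378-1 and BCAS3 for MIR378-2.

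The listed sequences of the 3p arms are shown because the reading of miR-107 depends on them, and PN-6-5p, a 5p arm, because it carries the miR-33 seed. Capitals mark the seed.
miR-103-3p: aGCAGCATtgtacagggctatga
miR-107-3p as listed: aGCAGCATtgtacagggctat
PC-8-3p: aGCAGCATtgtacagggctatgag
miR-378-3p: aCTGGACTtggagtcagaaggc
PC-36-3p: aCTGGACTtggagtcagaaggct
PN-6-5p: gTGCATTGtagttgcattgc

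The listed miR-107-3p is 21 nt long and is the start of the 23 nt miR-103-3p. It occurs in the hairpins of mir-103-1, mir-103-2 and mir-107 and of the candidate PC-8. In the hairpin of mir-107 the sequence was read on to 23 nt, the length of miR-103-3p. The hairpin does not show where the mature arm ends. Counted from the 5′ end, these 23 nt differ from miR-103-3p by G22C, a base that the listed 21 nt do not reach. Capitals mark that base.
miR-103-3p: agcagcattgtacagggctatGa
miR-107-3p in its hairpin: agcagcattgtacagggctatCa
Reads of the 21 nt sequence can therefore come from miR-107 or from a shortened miR-103, and these cannot be told apart in the table. In the same way PC-8-3p is miR-103-3p with another base at its 3′ end, and PC-36-3p is miR-378-3p with another base. Of the hairpins used here only PC-8 holds the sequence of PC-8-3p, and none holds that of PC-36-3p. The miR-103-3p line stands for the hairpins of both miR-103 genes, and the miR-378-3p line bears the names of both miR-378 genes, although of the hairpins used here only mir-378-1 holds its sequence. No other line of the table has the seeds of these sequences, which are found in 3 lines for miR-103/miR-107, 2 for miR-378 and 1 for PN-6-5p.

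The 5p arms tell the hairpins of mir-107, mir-103-1 and mir-103-2 apart, although the sequence of miR-103-1-5p also occurs in the hairpin of the candidate PC-8. They are shown for that reason, again with the seed in capitals.
miR-107-5p: aGCTTCTTtacagtgttgccttg
miR-103-2-5p: aGCTTCTTtacagtgctgccttg
miR-103-1-5p: gGCTTCTTtacagtgctgccttg
miR-378-1-5p: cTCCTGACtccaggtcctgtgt
From miR-103-2-5p to miR-107-5p the change is C16T, and from miR-103-2-5p to miR-103-1-5p it is A1G, counted from the 5′ end. On Sscrofa10.2 the authors placed mir-103-1 at chr16:59912617-59912698 on the plus strand and mir-103-2 at chr17:36149786-36149870 on the minus strand. They placed mir-107 at chr14:110407095-110407181 on the minus strand and mir-378-1 at chr2:157640333-157640440 on the plus strand. The candidate PC-8 was placed at chr17:36149737-36149838 on the minus strand, which overlaps the place of mir-103-2.

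The deposited values are normalized reads, that is, read numbers of the sequence found most often for a miRNA, which the authors divided by the mappable reads of the library. They summed to 1757879 to 2362082 in MS and to 2541224 to 2914028 in LW. Low values were multiples of the value of 1 read, 0.720 to 1.69 normalized reads in MS and 0.813 to 1.25 in LW, which gave back 1038981 to 3282599 reads in MS and 2028416 to 3419281 in LW. The shallowest library was MS replicate 3. The breeds were compared by limma after log2(normalized reads + 1), for the 548 miRNAs whose breed mean reached 10 normalized reads in MS or LW, and a miRNA is called where its Benjamini-Hochberg adjusted p is under 0.05. A log2 fold change is MS over LW on this scale, so changes of scarce miRNAs come out too small. Of all miRNAs tested 62.2% were called, 34.1% higher and 28.1% lower in MS, and the median log2 fold change was 0.11. With the libraries scaled to equal sums that median moved by 0.43, with 232 calls higher and 118 lower in place of 187 and 154, and a GC content correction moved it by -0.23. All 4 muscle miRNAs checked (miR-1-3p, miR-133a-3p, miR-133b-3p and miR-206-3p) were present in every library and called higher in MS, with a sum of 61079 to 84301 normalized reads in MS and 17015 to 22040 in LW. The rise of miR-206-3p (log2 fold change 0.66, limma adjusted p = 0.047) turned into a fall of -0.91 after the GC correction and was not called with edgeR (adjusted p = 0.059) or DESeq2 (0.051), and that of miR-1-3p (3.92) was at 0.47 and not called after the GC correction.

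Of the 7 lines, 6 were abundant enough to test and 5 of the 6 were called, 2 higher in MS (both arms of miR-107) and 3 lower (miR-103-3p, miR-103-2-5p and miR-378-3p), where 62.2% of all miRNAs were called. Their median log2 fold change was -0.38, against 0.11 for all miRNAs tested. In 5 of the 6 the breeds did not overlap, against 67.7% of all miRNAs tested. Among these lines miR-107-5p and miR-103-2-5p passed the filter only through the breed in which they were higher. Their direction was thus nearly set by the filter, and the counts and the median that include them carry this limit. Together the 7 lines held 1.13% ± 0.11 of the normalized reads in MS and 1.33% ± 0.18 in LW (SD, n = 3 each), nearly all of it in the 3p arms.

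**Figure D1:**
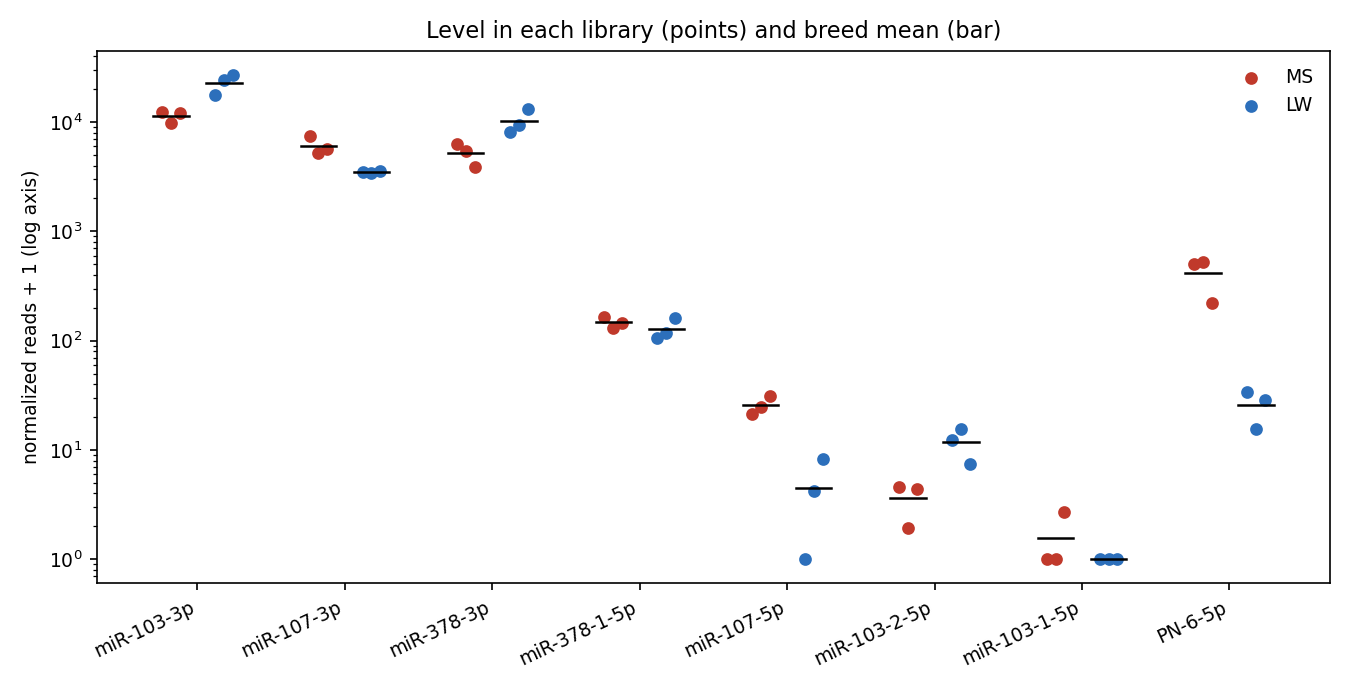
Normalized reads plus 1 (log axis) of the 7 lines and of PN-6-5p in each of the 3 MS (red) and 3 LW (blue) libraries, with the breed means as bars. The breeds are apart for miR-103-3p, miR-107-3p, miR-378-3p, miR-107-5p, miR-103-2-5p and PN-6-5p, whereas miR-378-1-5p overlaps and miR-103-1-5p is above 0 in 1 library.

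MiR-103-3p was the most abundant of the group, at rank 40 of the table in MS and rank 32 in LW. It had 12274, 9885 and 12204 normalized reads in MS replicates 1, 2 and 3, against 17745, 24293 and 26976 in LW replicates 1, 2 and 3. Every MS library lay below every LW library, and the lowest LW value was that of replicate 1. MiR-103-3p was lower in MS, with a mean of 11454 ± 1360 in MS and 23005 ± 4748 in LW (SD, n = 3 each), a 2.01-fold difference (log2 fold change -0.99 ± 0.24 SE, limma adjusted p = 0.0035). With equal sums the log2 fold change was -0.55 and still called (adjusted p = 0.041 from limma).

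The 21 nt sequence listed as miR-107-3p went the other way. It had 7385, 5260 and 5645 normalized reads in MS, against 3455, 3403 and 3532 in LW. The LW libraries lay close together, with MS replicate 1 highest of the 6. The mean was 6097 ± 1132 in MS and 3464 ± 64.8 in LW (SD, n = 3 each), a 1.76-fold rise (log2 fold change 0.80 ± 0.24 SE, limma adjusted p = 0.012). The call ended when MS replicate 1 was left out (log2 fold change 0.65, adjusted p = 0.066 from limma). With equal sums the log2 fold change was 1.24.

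Together the sequences with the miR-103/miR-107 seed were lower in MS than in LW in every library. The sum of miR-103-3p, miR-107-3p and PC-8-3p was 19674, 15164 and 17871 normalized reads in MS, against 21242, 27780 and 30580 in LW. The mean was 17570 ± 2270 in MS and 26534 ± 4792 in LW (SD, n = 3 each), a log2 difference of -0.59 (two-sided exact permutation test, p = 0.10, the smallest p that 3 animals against 3 allow, and 0.11 adjusted over the 9 sums and ratios tested). The size of this difference depended on the scaling. With the libraries scaled by the median of ratios it was -0.63, and by TMM (trimmed mean of M values) -0.54 (exact p = 0.10 in both). With equal sums it was -0.15 and the breeds overlapped (exact p = 0.40). These scalings of the sum were added after the data were seen.

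Within a library the balance of the sequences does not depend on the scaling. The 21 nt sequence made up 37.5% (95% Clopper-Pearson interval 37.0% to 38.1%), 34.7% (34.0% to 35.4%) and 31.6% (30.7% to 32.5%) of the reads with this seed in MS, against 16.3% (15.7% to 16.8%), 12.3% (11.9% to 12.6%) and 11.6% (11.2% to 11.9%) in LW. These intervals cover counting error only. The share was 34.6% ± 2.98 in MS and 13.4% ± 2.54 in LW (SD, n = 3 each), so the gap between the breeds was wider than the spread within them. On the log2 scale the ratio of miR-107-3p to miR-103-3p was 1.79 higher in MS (exact permutation test, p = 0.10, adjusted 0.11), and it was 1.68 to 1.97 when each library was left out in turn. The 24 nt PC-8-3p was scarce, with 14.4, 19.3 and 22 normalized reads in MS, against 41.3, 83.8 and 72.2 in LW. It was lower in MS (log2 fold change -1.73 ± 0.40 SE, limma adjusted p = 0.0026), and its ratio to miR-103-3p was lower by a log2 difference of -0.74 with no overlap of the breeds (exact permutation test, p = 0.10, adjusted 0.11), and by -0.38 with an overlap with a pseudocount of 10 (exact p = 0.20).

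Over the whole table the fold change also differed with the listed length, though not in a steady order. The median log2 fold change was 0.77 for the 12 tested miRNAs of 19 nt, 1.33 for the 18 of 20 nt, 0.55 for the 80 of 21 nt, 0.06 for the 255 of 22 nt, -0.51 for the 130 of 23 nt and -0.19 for the 34 of 24 nt. Among 16 pairs of tested sequences in which one is the start of the other, the ratio of the shorter to the longer was higher in MS in 11 and lower in 5, and the breeds did not overlap in 6 of the 11 and 2 of the 5. The 3 sequences with the miR-103/miR-107 seed give 3 of the 16 pairs, and all 3 are among the 6 without overlap that were higher in MS. The pair of miR-378-3p and PC-36-3p is among the 2 without overlap that were lower. These counts are therefore not separate from the lines described here. The part of listed length in the values of miR-107-3p and miR-103-3p was not tested.

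**Figure D2:**
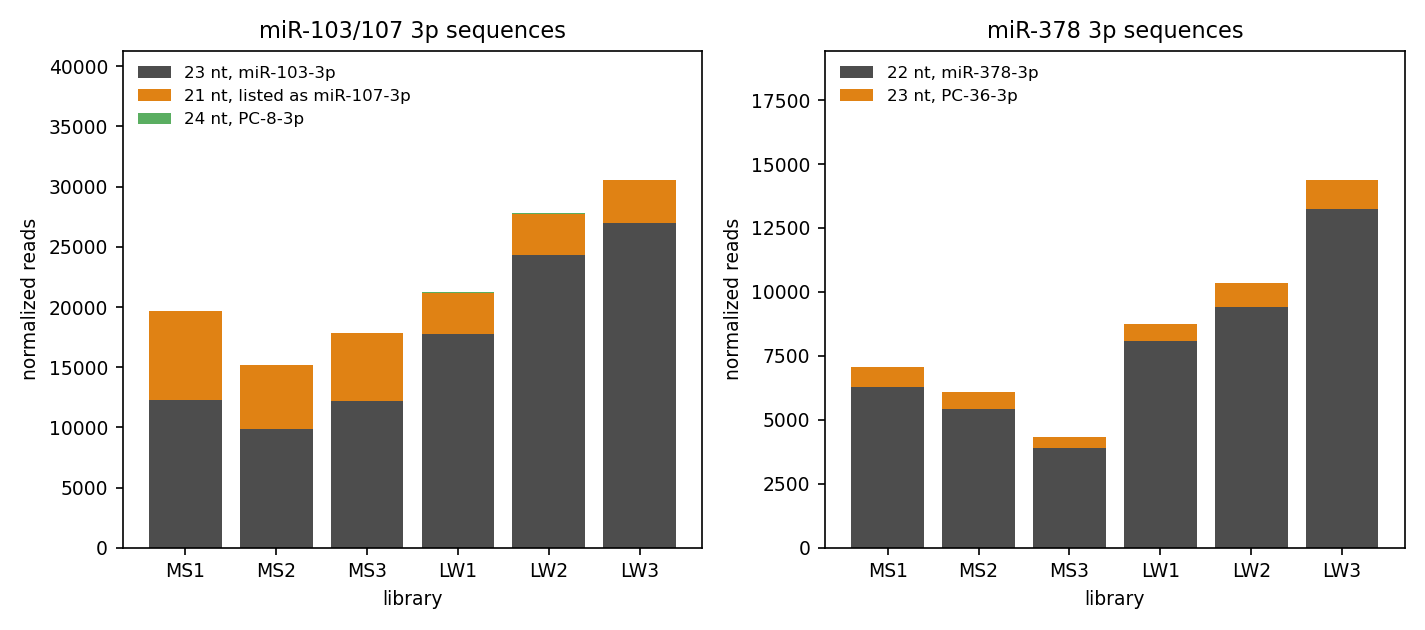
Normalized reads of the listed sequences that share a 3p seed, stacked by sequence, in the 3 MS and 3 LW libraries, for miR-103/miR-107 on the left and miR-378 on the right. The 21 nt part of the miR-103/miR-107 reads is larger in each MS library although the whole bar is lower, while the miR-378 bars are lower in MS with a small 23 nt part in all.

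The 5p arms do not share a listed sequence. MiR-107-5p was called higher and miR-103-2-5p lower in MS, the directions of the 3p arms named with them, whereas miR-103-1-5p was too scarce to test. Both called 5p arms passed the filter only through the breed in which they were higher, so their directions are no separate support for the 3p arms. MiR-107-5p had 20.1, 23.9 and 30.5 normalized reads in MS, which are 28, 26 and 18 reads, against 0, 3.25 and 7.31 in LW, which are 0, 4 and 8 reads. The 0 of LW replicate 1 allows up to 3 reads or 3.76 normalized reads at this depth. Every MS library lay above every LW library, with a mean of 24.8 ± 5.22 in MS and 3.52 ± 3.66 in LW (SD, n = 3 each). MiR-107-5p rose in MS (log2 fold change 2.96 ± 0.69 SE, limma adjusted p = 0.0027) and was called in each of the other fits in which it was tested, at 1.39 with a pseudocount of 10 and at 2.10 without LW replicate 1. At that LW mean a fall could not have been tested under the filter, and the p-values of the filtered fits carry this limit.

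MiR-103-2-5p had 3.60, 0.918 and 3.38 normalized reads in MS (5, 1 and 2 reads), against 11.3, 14.6 and 6.39 in LW (9, 18 and 7 reads). The breeds did not overlap, and both were at a few reads. At MS values this low a rise could not have been tested under the filter, and the p-values below carry this limit. The log2 fold change was -1.73 (SE 0.57, limma adjusted p = 0.018) and -0.70 with a pseudocount of 10. Without MS replicate 2 it was -1.32 (adjusted p = 0.074 from limma), without LW replicate 2 it was -1.49 (0.079), and with equal sums -1.39 (0.055), none of them called. MiR-103-1-5p was found as 1 read in MS replicate 3 (1.69 normalized reads) and as 0 in the other libraries, which is within the limit of 3 reads that a count of 0 allows.

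Of the reads of the 5p arms of these 3 hairpins, miR-107-5p took 28 of 33, 26 of 27 and 18 of 21 in MS, against 0 of 9, 4 of 22 and 8 of 15 in LW. As shares these were 84.8% (95% Clopper-Pearson interval 68.1% to 94.9%), 96.3% (81.0% to 99.9%) and 85.7% (63.7% to 97.0%) in MS, and 0% (up to 33.6%), 18.2% (5.19% to 40.3%) and 53.3% (26.6% to 78.7%) in LW. The intervals of LW replicate 3 and of MS replicates 1 and 3 overlapped. The log2 ratio of miR-107-5p to miR-103-2-5p was 4.69 higher in MS (exact permutation test, p = 0.10, adjusted 0.11). With so few reads it moved to 2.09 with a pseudocount of 10, to 3.77 without LW replicate 1 and to 5.66 without LW replicate 3. The ratio of miR-107-5p to the 21 nt miR-107-3p was also higher in MS, by 2.16 (exact p = 0.10, adjusted 0.11). It was 1.30 without LW replicate 1, the library with 0 reads, 2.81 without LW replicate 3, and 0.59 with a pseudocount of 10, where the breeds overlapped (exact p = 0.20). The ratio of miR-103-2-5p to miR-103-3p overlapped between the breeds (log2 difference -0.74, exact p = 0.30, and 0.29 with a pseudocount of 10).

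**Figure D3:**
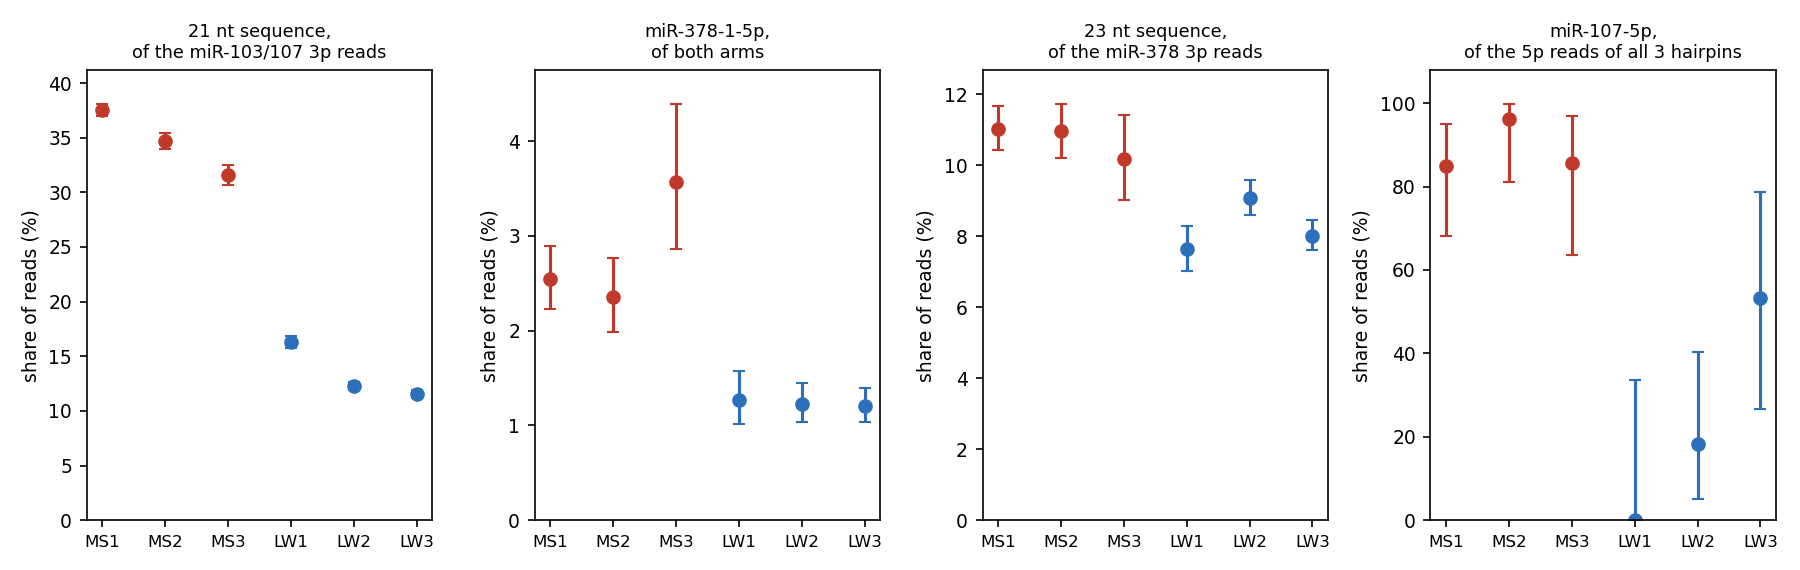
Shares of reads (%) in each MS (red) and LW (blue) library, with 95% Clopper-Pearson intervals as bars. From left to right they are the 21 nt sequence among miR-103/miR-107 3p reads, miR-378-1-5p among the reads of both arms, the 23 nt sequence among miR-378 3p reads, and miR-107-5p among the 5p reads of the 3 hairpins, and each is higher in all MS libraries than in all LW libraries.

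MiR-378-3p stood at rank 67 in MS and rank 48 in LW. It had 6300, 5412 and 3885 normalized reads in MS, against 8091, 9405 and 13235 in LW. The breeds did not overlap, with MS replicate 3 lowest and LW replicate 3 highest. MiR-378-3p was lower in MS, at 5199 ± 1222 in MS and 10244 ± 2673 in LW (SD, n = 3 each), a 1.97-fold difference (log2 fold change -0.98 ± 0.28 SE, limma adjusted p = 0.0089). This call was less firm than that of miR-103-3p. It ended without LW replicate 3 (log2 fold change -0.77, adjusted p = 0.057 from limma), with equal sums (-0.54, adjusted p = 0.055) and after the correction for GC content (-0.49, adjusted p = 0.098).

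The other arm, miR-378-1-5p, was at 165, 130 and 144 normalized reads in MS, against 104, 117 and 162 in LW, and the breeds overlapped. Its log2 fold change of 0.21 did not pass the test (95% interval -0.48 to 0.91, adjusted p = 0.57 from limma), and after the GC correction it was called higher, at 0.82 (adjusted p = 0.022 from limma). The 5p arm made up 2.55% (95% Clopper-Pearson interval 2.23% to 2.90%), 2.35% (1.98% to 2.77%) and 3.57% (2.86% to 4.4%) of the reads of both arms in MS, against 1.27% (1.01% to 1.57%), 1.23% (1.04% to 1.45%) and 1.21% (1.04% to 1.40%) in LW. The LW libraries agree within counting error, and every MS share was higher. The log2 ratio of the arms was 1.19 higher in MS (exact permutation test, p = 0.10, adjusted 0.11) and 1.0 to 1.31 when each library was left out. The 3p line is named for both miR-378 hairpins and the 5p line for the first, so the ratio may not be that of a single hairpin.

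PC-36-3p, the 23 nt form of miR-378-3p, had 781, 667 and 440 normalized reads in MS, against 669, 940 and 1155 in LW. It overlapped between the breeds and did not pass the test (log2 fold change -0.55, 95% interval -1.26 to 0.15, adjusted p = 0.15 from limma). Its share of the miR-378 3p reads was 11.0% (95% Clopper-Pearson interval 10.4% to 11.7%), 11.0% (10.2% to 11.7%) and 10.2% (9.03% to 11.4%) in MS, against 7.64% (7.03% to 8.28%), 9.09% (8.59% to 9.60%) and 8.02% (7.60% to 8.46%) in LW. The longer form thus took a larger share in MS, with a log2 ratio to the shorter one 0.42 higher (exact permutation test, p = 0.10, adjusted 0.11), whereas among the miR-103/miR-107 sequences the shortest took the larger share. The sum of both forms was lower in MS by a log2 difference of -0.94, and by -0.50 with equal sums, with no overlap in either case (exact p = 0.10 in both).

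PN-6-5p, the miR-33a match, had a larger fold change than any of the 6 tested lines. It had 502, 525 and 220 normalized reads in MS, against 32.6, 14.6 and 27.4 in LW. The lowest MS library lay well above the highest LW library, with means of 416 ± 170 in MS and 24.9 ± 9.23 in LW (SD, n = 3 each), a 16.7-fold rise (log2 fold change 3.98 ± 0.43 SE, limma adjusted p = 1.3e-05). It was called in each fit in which it was tested, from 3.55 with a pseudocount of 10 to 4.41 with equal sums. The other arm, PN-6-3p, was found as 1 read in MS replicate 1 and 2 reads in LW replicate 1. The sequence that matches human mir-103b, listed as PN-9-5p and PN-10-5p and read from the strand opposite to the miR-103 hairpins, was at 0.846 normalized reads in MS replicate 3, below the value of 1 read there, and at 0 elsewhere.

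**Figure D4:**
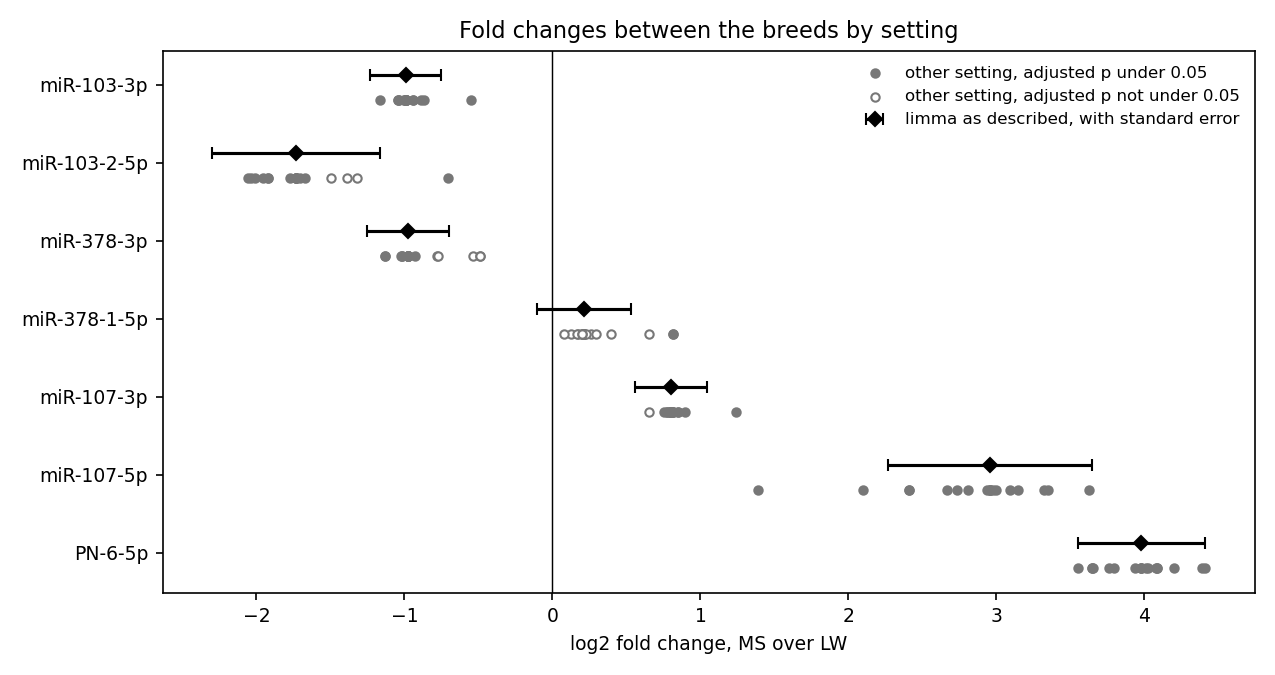
Log2 fold change of MS over LW for the 6 tested lines and PN-6-5p, with the limma value and its standard error as black diamonds and the other settings as dots, filled where the adjusted p was under 0.05. No line changes direction, and open dots appear for miR-103-2-5p, miR-378-3p, miR-378-1-5p and miR-107-3p.

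Over the 6 libraries the profiles of miR-103-3p and miR-378-3p had a root mean square difference of 0.27 between their centred log2 values. That of miR-107-3p differed from them by 0.92 each. The centred values include the breed difference, with log2 fold changes of -0.99, -0.98 and 0.80 for these 3. Nearness in these values is therefore no evidence apart from the fold changes. Among the other 178 miRNAs above 1000 normalized reads in either breed, those nearest to miR-103-3p were PN-49-3p (0.13), miR-20a-5p (0.14) and miR-181a-2-3p (0.18). Nearest to miR-107-3p were miR-214-5p (0.11), miR-30b-5p (0.17) and PN-52-5p (0.18), and nearest to miR-378-3p were let-7i-5p (0.13), miR-125b-1-3p (0.15) and let-7g-5p (0.15). None of these 9 shares the seed of its neighbour. After the GC correction miR-30b-5p lost its rise, at -0.04, and miR-181a-2-3p (-0.27) and miR-125b-1-3p (-0.22) were no longer called. MiR-20a-5p, let-7i-5p and let-7g-5p were then at -2.18, -1.84 and -2.47, whereas miR-103-3p was at -0.99 and miR-378-3p at -0.49. The nearest profiles were not sought after that correction.

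Of 23 other miRNAs known for roles in lipid or energy metabolism, 18 were matched in the table and tested, and 7 were called higher and 5 lower in MS, with 6 not called. The median log2 fold change of the 18 was 0.39, against 0.11 for all miRNAs tested, of which 62.2% were called. The 3 largest rises were those of miR-144-3p, an erythroid miRNA that in mice also targets ABCA1 (log2 fold change 3.27, adjusted p = 0.00087 from limma), miR-193a-3p (2.99, 0.0015) and miR-130a-3p, which represses PPARG in human adipocytes (2.04, 1.7e-05). The 3 largest falls were those of miR-185-5p (-3.19, 3.3e-06), the hepatic miR-122-5p (-2.86, 0.0082) and miR-455-3p (-2.12, 3.1e-05). The LW mean of miR-122-5p was 1093 ± 1531 normalized reads (SD, n = 3), with LW replicate 3 the highest library, and DESeq2 gave no adjusted p for it. Without LW replicate 3 miR-122-5p was at -1.60 and still called. Without MS replicate 3, the lowest MS library for both, miR-193a-3p was at 3.88 and miR-144-3p at 4.0. MiR-144-3p was at 2.56 without MS replicate 1, and miR-193a-3p at 2.47 without MS replicate 2. In LW miR-193a-3p had only 6, 11 and 12 reads, a mean of 9.14 normalized reads, so it passed the filter only through MS. At that LW mean a fall could not have been tested, and its p-value carries this limit. With a pseudocount of 10 the rise of miR-193a-3p was 2.28. After the GC correction miR-144-3p was at 0.81 and no longer called, miR-130a-3p was at 1.12 and still called, and 9 of the 18 were called lower.

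Markers of other cells were called in part as well, where 62.2% of all miRNAs tested were called, 34.1% higher and 28.1% lower in MS. The 3 blood miRNAs miR-451-5p, miR-144-3p and miR-486-5p summed to 5780 to 9994 normalized reads in MS and 3426 to 4480 in LW, with 2 of 3 called higher. After the GC correction miR-144-3p was at 0.81 and no longer called, and miR-451-5p was at 0.89 and still called. MiR-486-5p, not called before, was then called higher, at 0.96 (limma adjusted p = 0.017). Both leukocyte miRNAs matched (miR-142-3p and miR-142-5p) were called higher, with a sum of 694 to 1301 in MS and 70.0 to 85.2 in LW. After the GC correction miR-142-3p was at 0.42 and no longer called. The endothelial miR-126 arms summed to 10500 to 13989 in MS and 5134 to 8860 in LW. Of these miR-126-5p was called higher (log2 fold change 2.61), whereas miR-126-3p was at -0.43, did not pass the test, and was called lower after the GC correction (-0.70, limma adjusted p = 0.028). Of the neural miR-9-5p and miR-124a-3p, which summed to 1567 to 3989 in MS and 336 to 1198 in LW, miR-9-5p was called higher, at 1.99, and was at 0.21 and not called after the GC correction. The hepatic miR-122-5p was called lower, at 46.8 to 89.1 in MS and 182 to 2860 in LW. None of these markers was at 0 in both breeds. Their part in the values of miR-103, miR-107 and miR-378 was not tested.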

How the data were processed

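Small RNA libraries of longissimus dorsi muscle from 3 MS and 3 LW fetuses were used, grouped by the breed in the labels. RNA was isolated by the authors (mirVana) and made into TruSeq small RNA libraries. They kept reads of 18 to 26 nt with ACGT101-miR (version not given in the sources used here), removed other RNA classes, mapped with BLAST to miRBase 21.0 and Sscrofa10.2, and merged lines by sequence. The deposited values are a signal, namely normalized reads for the sequence seen most often, divided by mappable reads and brought to a target that the sources used here do not state. Hairpin positions and sequences are the authors', and the other sequences are those of the table. Another 4 lines are not reported here.

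Whole reads recovered by dividing by each library's step (93.3% to 95.7% of values up to 20 reads whole within 0.1 read, others rounded) were used for shares and for edgeR and DESeq2.

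Breeds were compared with limma 3.58.1 (R 4.3.3, eBayes with a trend) without covariates. Sums and ratios were tested with two-sided exact permutation tests. Alternatives were pseudocounts of 0.5 and 10, 3 scalings, 2 filters, no trend, a replicate block, a GC correction by loess (span 0.75), both together, leaving out each library, DESeq2 1.42.0 and edgeR 4.0.16. On simulated reads over 548 miRNAs, limma recovered 80.9% of 2-fold and 97.3% of 4-fold changes. The simulation changed 200 miRNAs and gave every miRNA the same dispersion, whereas 341 were called in the data. These rates therefore need not hold for the data or for scarce miRNAs. The miRNAs and lists were chosen with earlier results of these data known. Named are all members, lines sharing a 3p seed or hairpin with them, their 3 nearest profiles, and the 3 largest rises and falls of the metabolic list.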

Additional observations from a re-analysis of the deposited data

How the results depend on the processing

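Directions of the 6 tested lines of miR-103, miR-107 and miR-378 were the same under each alternative run, and the number of calls moved. MiR-107-5p and miR-103-2-5p entered the filtered fits only through their higher breed, so their steady direction is no further support. With equal sums 1 line was called lower, and with only miRNAs above 1000 normalized reads tested 1 was called higher, since the 5p arms were then not tested. After the GC correction 3 lines were called higher and 2 lower, as miR-378-3p was no longer called and miR-378-1-5p was called higher. Leaving out each library gave 1 to 2 lines higher and 2 to 3 lower. Of the metabolic list, 3 miRNAs were called lower with equal sums and without a trend, 9 after the GC correction with or without the replicate block, and 3 to 4 when each library was left out. The log2 ratio of miR-103-2-5p to miR-103-3p turned to 0.29 with a pseudocount of 10. MiR-206-3p was at -0.91 and miR-30b-5p at -0.041 after the GC correction with or without the block, and miR-126-3p at 0.0079 with equal sums. The cause of these changes was not tested.

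Replicate numbers are shared by the breeds but do not pair the animals (correlations of same-numbered libraries 0.0047, -0.21 and 0.097 over 548 miRNAs). With a replicate block 2 lines were called higher and 3 lower, as without it, miR-206-3p was not called (adjusted p = 0.084 from limma), and the exact p of the sums and ratios could not go below 0.25.

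Depth limits the 5p arms of miR-103 and miR-107, which had at most 28 reads in a library.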
